A study of Arabidopsis thaliana with 6 samples.

Results

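The genes described here are 10 alpha-expansins of Arabidopsis thaliana, chosen by gene identifier as members of the family linked to growing shoots: EXPA1, EXPA2, EXPA3, EXPA4, EXPA5, EXPA6, EXPA8, EXPA10, EXPA11 and EXPA15. They are 10 of the 27655 genes in the deposited table. They were chosen with earlier results of these data known. Counts over them therefore describe these 10 genes and are no independent support for a family-wide fall. Whole seedlings of the Col-0 accession, 14 days old and grown on agar plates under long days, were either submerged in distilled water for 1 h or left in air for 1 h as the control. Each group holds 3 libraries, all of untransformed Col-0. The design text calls them biological replicates without saying whether they came from separate plates or days, so a p-value here covers only the variation among these libraries. Library totals ran from 20041244 to 29673924 counts in the submerged group and from 20287275 to 25900177 counts in the air group.

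Expansins are small secreted wall proteins that loosen the contact between cellulose and the polymers around it, without cutting either. They act best in an acidic wall, which plasma membrane proton pumps provide, and turgor then stretches the loosened wall. In growing hypocotyls, petioles and young leaves, light, auxin, gibberellin and brassinosteroid act on alpha-expansin genes, so their transcripts are widely used as markers of cell expansion. A few members have a well described place: EXPA1 is known from guard cells and from growing tissue, EXPA2 from germinating seeds, EXPA5 from brassinosteroid-responsive growth, and EXPA10 from the expansion of leaves and petioles.

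Within 1 h under water, 7 of the 9 alpha-expansin transcripts that could be tested fell, all of them at least 2-fold, and none rose. Over all 19495 tested genes, 26.1% were called lower, and 5.59% were called lower by at least 2-fold. The steepest fall was that of EXPA8, to a level 39.3-fold below that in air, and EXPA3, EXPA10 and EXPA6 followed. EXPA5 and EXPA11 did not pass the test, and EXPA2 was all but undetected. Summed over the 10 genes, the level was 176 ± 23.4 TPM in submerged seedlings and 472 ± 25.9 TPM in air (SD, n = 3 each), where TPM is the deposited transcript abundance, scaled by gene length and by library. In RNA from whole seedlings, fewer expressing cells and less RNA per cell cannot be told apart.

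The window of 300 bases before the annotated start of transcription is shown for 4 of these genes, because they span the range of responses: EXPA8 fell most, EXPA1 was the most abundant, EXPA10 is the gene closest to EXPA1 in coding sequence, and EXPA5 did not pass the test. Sequences are from the RefSeq TAIR10.1 assembly, read 5′ to 3′ on the strand of the gene. Capitals mark any of 5 sets of letters searched on both strands: the G-box CACGTG, auxin response elements (TGTCTC or TGTCGG), brassinosteroid response elements (CGTGTG or CGTGCG), W-boxes (TTGACC or TTGACT) and the CGCG box CGCGT. The windows lie at chr2:16950706-16951005 (minus strand), chr1:26141426-26141725 (plus), chr1:9259132-9259431 (plus) and chr3:11013452-11013751 (minus), and no other annotated gene reaches into them.
EXPA8: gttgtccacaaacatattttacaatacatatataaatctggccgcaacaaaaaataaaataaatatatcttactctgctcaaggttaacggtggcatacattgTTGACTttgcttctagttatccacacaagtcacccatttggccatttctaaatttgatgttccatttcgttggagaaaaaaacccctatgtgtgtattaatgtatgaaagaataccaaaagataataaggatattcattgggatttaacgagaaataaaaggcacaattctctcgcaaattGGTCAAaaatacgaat
EXPA1: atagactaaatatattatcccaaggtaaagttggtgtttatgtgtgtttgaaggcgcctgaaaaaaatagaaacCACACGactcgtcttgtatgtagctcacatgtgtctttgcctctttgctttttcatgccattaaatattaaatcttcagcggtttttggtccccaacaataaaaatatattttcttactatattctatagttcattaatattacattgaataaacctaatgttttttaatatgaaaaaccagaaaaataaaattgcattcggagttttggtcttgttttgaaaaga
EXPA10: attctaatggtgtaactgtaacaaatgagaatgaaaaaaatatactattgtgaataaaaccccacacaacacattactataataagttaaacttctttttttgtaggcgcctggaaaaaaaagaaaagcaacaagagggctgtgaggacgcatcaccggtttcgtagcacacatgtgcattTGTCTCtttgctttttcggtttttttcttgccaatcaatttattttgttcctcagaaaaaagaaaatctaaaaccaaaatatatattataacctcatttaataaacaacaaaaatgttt
EXPA5: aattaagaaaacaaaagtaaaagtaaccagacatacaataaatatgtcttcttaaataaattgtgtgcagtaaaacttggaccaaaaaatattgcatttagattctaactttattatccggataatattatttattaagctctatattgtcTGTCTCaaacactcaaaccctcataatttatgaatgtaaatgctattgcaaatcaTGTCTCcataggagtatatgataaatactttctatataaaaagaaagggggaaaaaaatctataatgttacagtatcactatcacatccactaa

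No set of these letters was common to the genes that fell. EXPA8 held a W-box on the strand of the gene from position -197 and another on the opposite strand from position -16, counted from the start of transcription. W-box letters were also present in EXPA4, and in 32.3% of all 27443 windows of the same length. Auxin response element letters were present in 3 of the 10 windows, those of EXPA5, EXPA6 and EXPA10, against 17.3% of all windows. The EXPA5 window, from a gene that did not pass the test, held them at 2 positions. Brassinosteroid response element letters were in the windows of EXPA1, EXPA2 and EXPA6, against 7.64% of all windows. EXPA2 held the only G-box (7.09% of all windows), and EXPA6 the only CGCG box (7.89% of all windows). EXPA3, EXPA11 and EXPA15 held none of the letters searched. No matches overlapped each other in the 10 windows. The EXPA1 and EXPA10 windows share a run of 14 identical bases, CTCTTTGCTTTTTC, which starts at position -186 in EXPA1 and at position -116 in EXPA10, where its first letters belong to the auxin response element.

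EXPA8 (AT2G40610) had 1.65, 0.545 and 1.24 CPM in the submerged libraries, against 47.8, 42.5 and 50.6 CPM in the air libraries. CPM is the count scaled by the size of each library, adjusted by its TMM factor, but not by gene length. All of the submerged libraries lay far below all of the air libraries, and the lowest rested on 12 counts. The log2 fold change, submerged over air, was -5.30 ± 0.19 (SE, n = 3 each; adjusted p = 2.06e-10 by edgeR's quasi-likelihood test with Benjamini-Hochberg adjustment, as for every adjusted p of a single gene below). Of the 19495 genes tested, 0 had a lower fold change. Of the 9 alpha-expansins tested, 7 were called lower and 0 higher at an adjusted p under 0.05. Calls as such were common, since 55% of all tested genes were called, 26.1% lower and 28.8% higher. Falls of at least 2-fold were rarer: they made up 5.59% of all tested genes and 7 of the 9 alpha-expansins, and called rises of that size made up 9.69% and 0 of the 9. The groups did not overlap, with submerged libraries lower, in 7 of the 9 alpha-expansins and 30% of all tested genes, and with submerged libraries higher in 0 of the 9 and 32.2%.

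**Figure D1:**
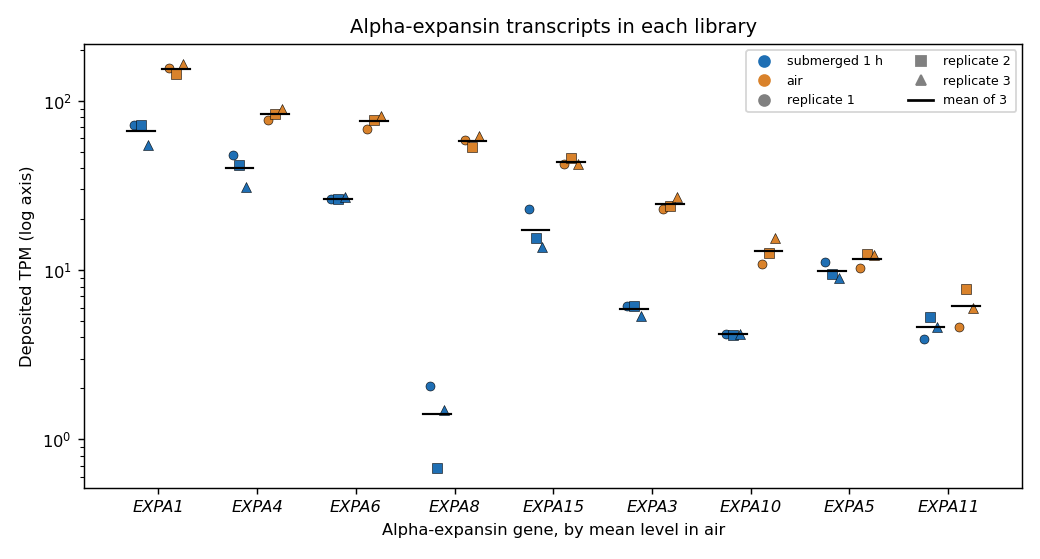
Deposited TPM (log axis) of the 9 tested alpha-expansins in each library, submerged left of air for each gene, with marker shape for the replicate and a line at the mean of 3. The groups do not overlap for 7 genes, EXPA8 shows the widest gap, and the groups overlap for EXPA5 and EXPA11.

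EXPA1 (AT1G69530), the most abundant of the 10, had 67.2, 67.2 and 53.01 CPM in submerged seedlings, against 150, 133 and 158 CPM in air. The groups did not overlap, and submerged replicate 3 was the lowest of the 6 libraries. The log2 fold change was -1.23 ± 0.09 (adjusted p = 1.46e-07). EXPA4 (AT2G39700), the next in abundance, had 43.3, 37.7 and 29.1 CPM in submerged seedlings and 71.2, 75.4 and 82.9 CPM in air. Its log2 fold change was -1.05 ± 0.11 (adjusted p = 4.71e-06), the smallest of the 7 falls. As with EXPA1, submerged replicate 3 was the lowest library.

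EXPA6 (AT2G28950) varied little between the submerged libraries. It had 25.2, 25.1 and 26.7 CPM in the submerged libraries and 67.2, 73.2 and 80.1 CPM in the air libraries. The groups stood well apart, with a log2 fold change of -1.52 ± 0.07 (adjusted p = 2.61e-09). EXPA15 (AT2G03090) was more scattered under water, with 19.7, 13.4 and 12.2 CPM there and 37.7, 39.5 and 37.8 CPM in air. Submerged replicate 1 was the highest submerged library and still below every air library, and the log2 fold change was -1.32 ± 0.14 (adjusted p = 3.68e-06).

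Among the less abundant genes, EXPA3 (AT2G37640) had 6.55, 6.58 and 5.94 CPM in submerged seedlings, against 25.1, 25.4 and 29.8 CPM in air. This was the second steepest fall, with a log2 fold change of -2.07 ± 0.11 (adjusted p = 4.88e-09). EXPA10 (AT1G26770), known from leaf expansion, had 3.95, 3.90 and 4.13 CPM under water and 10.6, 11.8 and 15.05 CPM in air. The submerged libraries were nearly level, the air libraries were more spread with replicate 3 the highest, and the log2 fold change was -1.64 ± 0.16 (adjusted p = 1.99e-06).

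A pair of genes stood nearer to their air levels. EXPA5 (AT3G29030), known from brassinosteroid-responsive growth, had 9.59, 8.17 and 8.05 CPM in submerged seedlings and 9.02, 10.6 and 10.9 CPM in air. Submerged replicate 1 lay above air replicate 1, so the groups overlapped, and the log2 fold change was -0.23 ± 0.13 (adjusted p = 0.158). EXPA11 (AT1G20190) had 3.17, 4.27 and 3.87 CPM under water and 3.84, 6.21 and 4.97 CPM in air. These groups overlapped too, with a log2 fold change of -0.41 ± 0.22 (adjusted p = 0.138). It ran from -0.57 without air replicate 1 to -0.23 without air replicate 2. Neither value shows that the transcript did not change. With upper quartile scaling, which moves the median over all tested genes by -0.12 on the log2 scale, EXPA5 was at -0.36 (adjusted p = 0.0377).

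EXPA2 (AT5G05290), known from germinating seeds, had 0 counts in each submerged library and 0, 2 and 0 counts in the air libraries. It was below the count filter and was not tested, and no fold is given. The gene overlaps an annotated gene on the other strand, and the sources used here do not give the strand setting of the counting. The 9 genes tested had at least 12 counts in every library. In the authors' deposited table, 7 of the 10 genes have a false discovery rate under 0.05, and those 7 are lower under water.

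Genes next to each other in the order of fold change were compared through their ratio within each library, over 8 pairs. That order came from these same data, so the sign of each difference was largely set in advance. With 3 libraries against 3 the smallest two-sided p of an exact permutation test is 0.1, and after adjustment over the 8 pairs the smallest was 0.267, so no pair could pass. The log2 ratio of EXPA8 to EXPA3 was -1.99, -3.59 and -2.26 in the submerged libraries and 0.93, 0.74 and 0.76 in air, a difference of -3.42 with no overlap (exact permutation p = 0.1). EXPA3 to EXPA10 differed by -0.44 and EXPA10 to EXPA6 by -0.11, also without overlap. For EXPA10 to EXPA6 the groups all but touched, at -2.673 in submerged replicate 1 and -2.671 in air replicate 1. The other 5 pairs, which cover the order EXPA6, EXPA15, EXPA1, EXPA4, EXPA11 and EXPA5, overlapped between the groups. Pairs further apart in this order were not compared.

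The order of abundance differed between the groups, most visibly at EXPA8 and EXPA5. On the TPM scale in submerged seedlings, EXPA1 led with 66.4 ± 9.94 TPM, ahead of EXPA4 (40.2 ± 8.59), EXPA6 (26.5 ± 0.372), EXPA15 (17.4 ± 4.93), EXPA5 (9.90 ± 1.14), EXPA3 (5.85 ± 0.450), EXPA11 (4.61 ± 0.661), EXPA10 (4.17 ± 0.0524) and EXPA8 (1.42 ± 0.703; SD, n = 3). In air EXPA1 led with 155 ± 10.7 TPM, ahead of EXPA4 (83.6 ± 6.22), EXPA6 (75.8 ± 6.57), EXPA8 (57.97 ± 4.05), EXPA15 (43.8 ± 2.01), EXPA3 (24.6 ± 2.19), EXPA10 (12.99 ± 2.32), EXPA5 (11.7 ± 1.24) and EXPA11 (6.13 ± 1.56). Under water only EXPA11 and EXPA10 overlapped as neighbours. In air EXPA4 overlapped with EXPA6, and EXPA10 with EXPA5. EXPA8 thus held the ninth place under water and the fourth in air. EXPA5 held the fifth place under water, above EXPA3, and the eighth in air, below EXPA3, and these genes did not overlap in either group.

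EXPA8 made up 1.05%, 0.376% and 0.991% of the summed TPM of the 10 genes in the submerged libraries, against 12.9%, 11.6% and 12.3% in air. EXPA5 made up 5.67%, 5.24% and 5.98% under water, against 2.27%, 2.70% and 2.46% in air. EXPA1 held the largest share in every library, 37.6 ± 1.89% under water and 32.9 ± 1.77% in air (SD, n = 3 each). The summed level was 197, 181 and 151 TPM in the submerged libraries and 452, 462 and 501 TPM in the air libraries, so the groups did not overlap. It came to 37.4% of the air level, and to 42.3% when EXPA8 was left out.

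**Figure D2:**
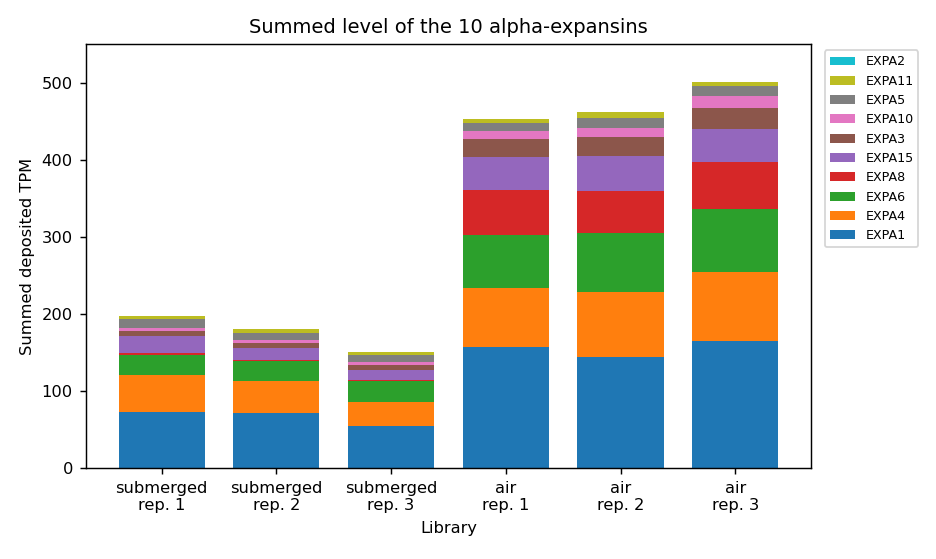
Deposited TPM of the 10 alpha-expansins stacked for each library, with submerged libraries on the left and air libraries on the right. The submerged sums lie between 151 and 197 TPM and the air sums between 452 and 501 TPM, and the EXPA8 layer is barely visible under water.

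The coding sequences of the 10 genes are related without being near-identical. Pairwise identity over 45 pairs ran from 63.4% to 79.7%, with a median of 70.0%. EXPA1 and EXPA10 were the closest pair. The longest run of identical bases between transcripts of any pair of the 10 was 33 bases, and between one of them and another alpha-expansin 36 bases (EXPA2 and EXPA14). The sources used here do not give the read length. EXPA15 and EXPA8 were both 75.7% identical to EXPA1, and their log2 fold changes were -1.32 and -5.30, beside -1.23 for EXPA1.

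The other alpha-expansins gave different values. Of 16 listed, 1 (EXPA19) has no row in the table used here, 5 had no count, 3 were below the filter and 7 were tested. Of the 7, 1 was called higher and 0 lower (6 did not pass), while 28.8% of all tested genes were called higher and 26.1% lower. The median log2 fold change of the 7 was 0.21, against -1.32 for the 9 tested of the chosen 10 and 0.01 for all tested genes. EXPA7, EXPA14, EXPA16, EXPA18 and EXPA20 were low, with air means of 1.25 to 3.26 CPM. Their SEs ran from 0.25 to 0.50, so a fall in them could have been missed. EXPA13 (AT3G03220) had 16.3, 18.1 and 17.1 CPM in submerged seedlings, against 9.67, 11.1 and 13.9 CPM in air (log2 fold change 0.58 ± 0.13, adjusted p = 0.00211). EXPA7 and EXPA18, both known from root hairs, stood at -0.43 ± 0.40 (adjusted p = 0.386) and -0.00 ± 0.50 (adjusted p = 0.997). The numbers called lower in these lists were not tested against each other.

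The other branches of the superfamily went both ways. Of 6 beta-expansins, 2 were tested and both fell. EXPB3 (AT4G28250) had 29.9, 21.7 and 21.1 CPM under water and 41.5, 45.9 and 54.3 CPM in air (log2 fold change -0.95 ± 0.13, adjusted p = 4.24e-05). EXPB1 (AT2G20750) was at -1.59 ± 0.46 (adjusted p = 0.0105), and ran from -2.31 without submerged replicate 1 to -1.25 without submerged replicate 2 (adjusted p = 0.0411). Its largest adjusted p with 1 library left out was 0.0475, without air replicate 2. EXLB1 (AT4G17030), an expansin-like gene whose role is little known, fell as well (-1.73 ± 0.31, adjusted p = 0.000381).

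The 3 expansin-like A genes, whose products carry the expansin fold but have no established loosening activity, rose steeply. EXLA1 (AT3G45970) had 440, 482 and 409 CPM in submerged seedlings, against 41.96, 15.4 and 39.6 CPM in air (log2 fold change 3.77 ± 0.25, adjusted p = 5.53e-08). EXLA2 (AT4G38400) rose by 4.45 ± 0.16 (adjusted p = 1.72e-10) and EXLA3 (AT3G45960) by 4.28 ± 0.22 (adjusted p = 4.97e-09). EXLA1 and EXLA3 are 86.6% identical in coding sequence with a shared run of 57 bases, so their separate values are less certain. Together these 3 genes summed to 917 ± 105 TPM under water and 60.1 ± 24.1 TPM in air (SD, n = 3 each). The sum over all 35 expansin and expansin-like genes in the table was therefore higher under water, at 1161 ± 126 TPM, than in air, at 614 ± 40.9 TPM, although the 10 alpha-expansins were lower.

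**Figure D3:**
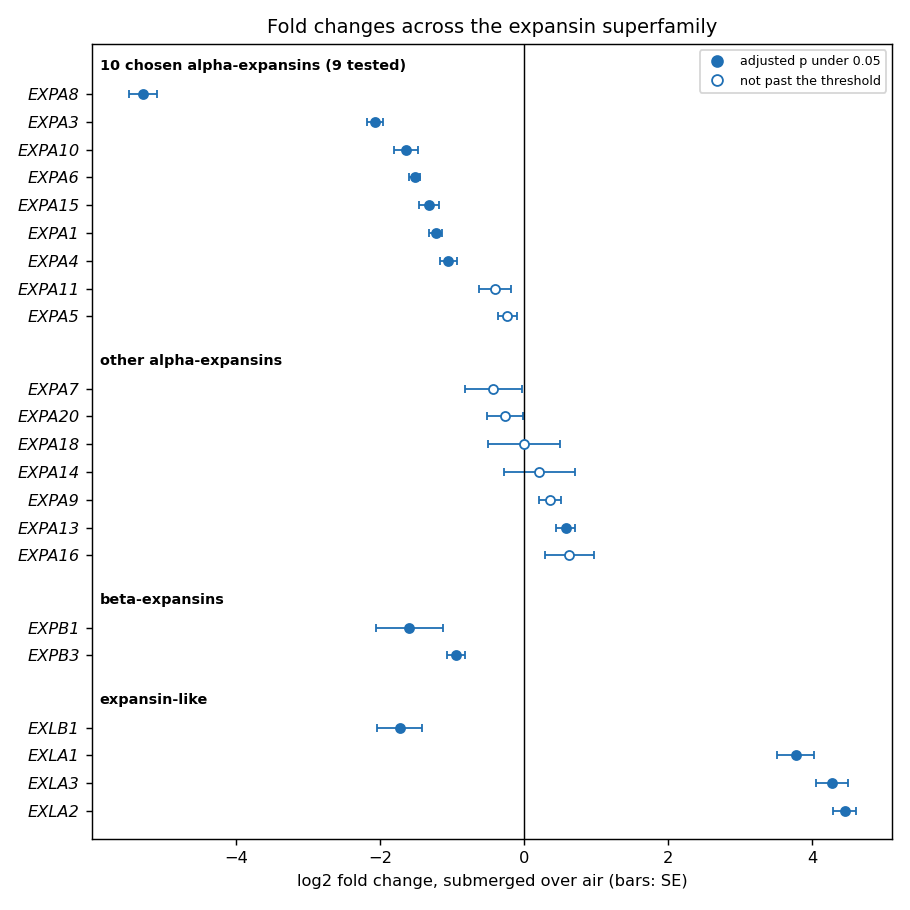
Log2 fold change, submerged over air, with its SE for each tested gene of the expansin superfamily; filled points passed an adjusted p of 0.05. The chosen alpha-expansins lie left of 0 down to -5.30 for EXPA8, the other alpha-expansins sit between -0.43 and 0.63, and the expansin-like A genes lie between 3.77 and 4.45.

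Regulators of cell expansion were split. Of 15 listed, 14 were tested, and 6 were called higher and 6 lower, with a median log2 fold change of 0.03 (0.01 for all tested genes). Calls in both directions were common, at 28.8% higher and 26.1% lower over all tested genes. Those that fell most were PRE1 (AT5G39860) and PRE6 (AT1G26945), small helix-loop-helix proteins that promote growth, and PIF4 (AT2G43010), a phytochrome-interacting factor that promotes elongation. PRE1 stood at -4.87 ± 0.24 (adjusted p = 2.43e-09), PRE6 at -1.76 ± 0.17 (adjusted p = 1.92e-06) and PIF4 at -1.64 ± 0.06 (adjusted p = 2.15e-10). HBI1 (AT2G18300), a helix-loop-helix factor known to activate expansin genes, had 82.1, 85.9 and 84.2 CPM under water and 133, 153 and 153 CPM in air, and fell by 0.80 on the log2 scale (SE 0.06, adjusted p = 3.18e-07). IBH1, a repressor of HBI1, fell too (-0.72 ± 0.13, adjusted p = 0.000401), as did the auxin response factor gene ARF8 (-0.77 ± 0.09, adjusted p = 5.94e-06).

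The regulators that rose included other PIF and ARF genes. PIF7 (AT5G61270) rose by 1.13 ± 0.08 (adjusted p = 5.83e-08) and PIF5 (AT3G59060) by 0.68 ± 0.05 (adjusted p = 2.43e-07). BZR1 (AT1G75080), a transcription factor of brassinosteroid signalling, rose by 0.65 ± 0.08 (adjusted p = 1.47e-05). PIF3, ARF6 and ARF7 rose by 0.59, 0.44 and 0.42 on the log2 scale. BES1, the close relative of BZR1, stood at -0.06 ± 0.08 (adjusted p = 0.519), and PAR1, which restrains elongation, at 0.12 ± 0.13 (adjusted p = 0.467).

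Plasma membrane proton pump genes, whose products acidify the wall in which expansins act, were in part lower by small amounts. Of 11 listed, 9 were tested, and 4 were called lower and 0 higher (5 did not pass), with a median log2 fold change of -0.28. Over all tested genes, 26.1% were called lower and 28.8% higher. AHA1 (AT2G18960), the most abundant, had 490.5, 484 and 503 CPM in submerged seedlings, against 601, 609 and 625 CPM in air (log2 fold change -0.31 ± 0.05, adjusted p = 0.000184). AHA3 (AT5G57350) was at -0.75 ± 0.06 (adjusted p = 1.47e-07), AHA11 (AT5G62670) at -0.74 ± 0.08 (adjusted p = 3.16e-06) and AHA8 at -0.55 ± 0.11 (adjusted p = 0.000989). AHA2, the second most abundant, stood at -0.22 ± 0.09 (adjusted p = 0.0559). AHA4 (AT3G47950) had 2.40, 2.63 and 2.84 CPM under water and 2.30, 2.16 and 1.62 CPM in air, without overlap and with the submerged libraries higher, but did not pass the test (log2 fold change 0.36 ± 0.26, adjusted p = 0.263). The number of pumps called lower ran from 4 to 6 over the alternative settings. It was 6 with upper quartile scaling, with library size alone and without the count filter. Pump activity is set largely by phosphorylation of the protein, which was not measured.

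**Figure D4:**
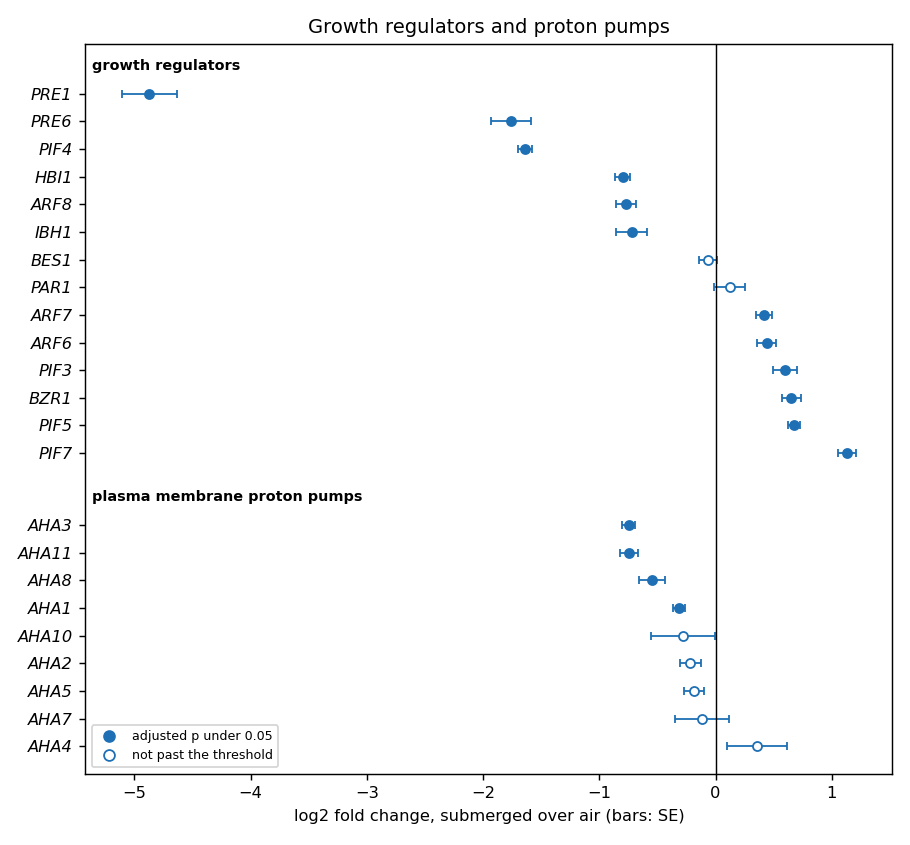
Log2 fold change, submerged over air, with its SE for tested growth regulators and plasma membrane proton pumps; filled points passed an adjusted p of 0.05. Regulators run from -4.87 for PRE1 to 1.13 for PIF7, and the pumps that passed run from -0.75 to -0.31.

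By profile over the 6 libraries, the genes most like EXPA8 were other strongly lowered genes. Among 14893 genes with a mean of at least 5 CPM, likeness was measured as the Euclidean distance between centred log2 CPM profiles, which the difference between the groups dominates. The nearest was AT1G10640, a pectin lyase-like gene, at a distance of 0.288. It had 0.506, 0.0908 and 0.310 CPM in the submerged libraries and 13.5, 11.6 and 13.3 CPM in air, so that submerged replicate 2 was its lowest library, as it was for EXPA8. PRE1 followed at 1.52, the auxin-responsive gene AT5G18030 at 2.23, the pectin lyase-like gene AT1G60590 at 2.53 and the lectin gene AT1G52100 at 2.57. None of the 10 chosen alpha-expansins rose, so no profile was sought for a rise.

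Whole seedlings hold roots as well as shoots, and root marker levels differed between libraries of the same group. Of 16 root markers, 15 had a count in every library, and CASP5 was at 0 in air replicates 1 and 3. Without PYK10, which is far more abundant than the rest, they summed to 32.8 to 45.2 CPM in the submerged libraries and 21.8 to 47.3 CPM in the air libraries. Air replicate 3 was the lowest air library in 13 of 15 tested root markers, and the highest in 7 of the 9 tested alpha-expansins. Air replicate 2 was the highest in 13 of the 15 markers and in 2 of the 9 alpha-expansins. Among submerged libraries, replicate 1 was the highest in 8 of 15 markers and in 5 of 9 alpha-expansins. No organ was sampled alone, so the label of growing shoots cannot be checked directly here.

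Between the groups, 14 of the 15 tested root markers did not pass the test, whereas 55% of all tested genes were called. PYK10 fell (-0.82 ± 0.11, adjusted p = 5.13e-05). The SEs of those 14 ran from 0.21 to 0.56 on the log2 scale, so they do not show equal root content. Without air replicate 2, 3 root markers were called higher and 2 lower. With a root marker score as a covariate, 7 alpha-expansins were again called lower and 0 higher, and EXPA8 was at -5.25. The markers had a median deviation of 0.66 in air replicate 2 and -0.69 in air replicate 3, and a median log2 fold change of 0.14 between groups. The score could therefore take up little of a difference between groups. Any part of organ make-up in the falls was not tested.

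**Figure D5:**
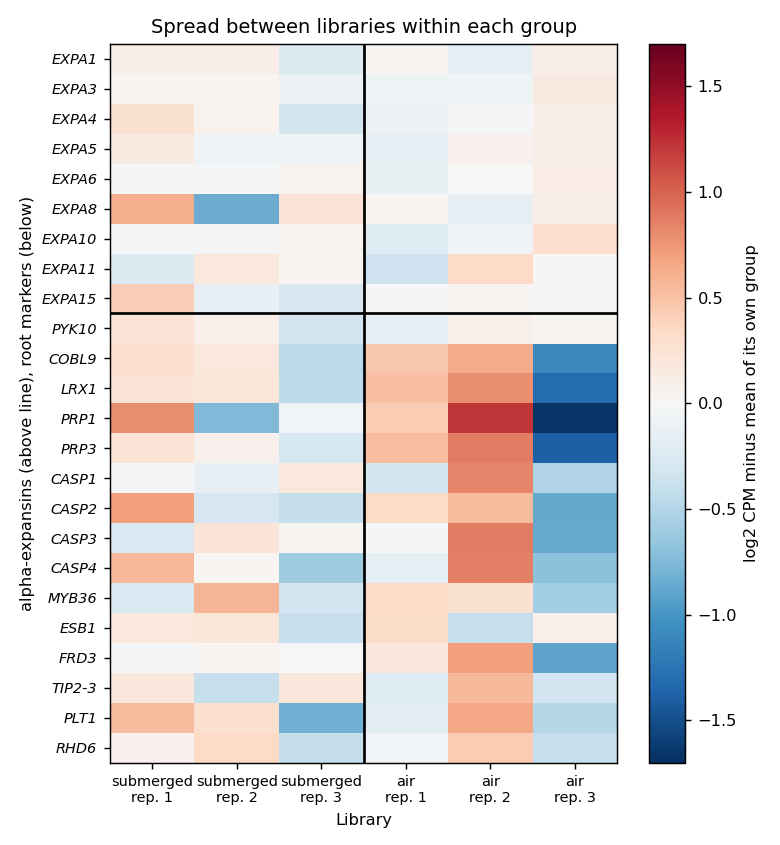
Log2 CPM of each tested alpha-expansin (above the line) and root marker (below it) minus the mean of its own group, with submerged libraries left of air libraries. Root markers are low in air replicate 3 and high in air replicate 2, while 7 of the 9 alpha-expansins are highest in air replicate 3.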

How the data were processed

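Total RNA of whole seedlings was sequenced. Per the submitters' processing notes, TAIR10 was the genome used. The sources used here do not give the aligner, counter, strand setting or read length. The authors deposited whole-number counts per gene for each library, together with RPKM and TPM, per the file headers. The deposited column named CPM holds a size-adjusted signal (each library's counts divided by 1 constant) and was not used. The authors' log2 fold changes and false discovery rates stand in a separate table.

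The test on counts used edgeR 4.0.16 (R 4.3.3): TMM factors, filterByExpr (minimum count 10, minimum total 15), the quasi-likelihood F test and Benjamini-Hochberg adjustment over 19495 genes, with calls at an adjusted p under 0.05. CPM was computed here from counts and TMM factors, and log2 CPM used a prior count of 2. Summed levels and ranks between genes use the deposited TPM and carry no test. Values of 1 to 20 were even numbers in 85.8% to 87.4% of cases. Intervals on low counts were therefore computed after the summed counts were divided by 2. They cover counting error only and may be too narrow. The mean chi-square between replicates was 4.58 to 9.50 per gene, so all 6 libraries were kept as separate samples. Counting noise alone gives about 1 for independent counts, and more where counts come in steps of 2. The test was checked on simulated counts.

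The members and gene lists were chosen with earlier results of these data known. All 10 members are named. From each other list, up to 3 called genes with the largest changes per direction are named, and genes against their list. EXPA7, EXPA12, EXPA14, EXPA16, EXPA17, EXPA18, EXPA20, AHA1, AHA2, AHA4, AHA9, HBI1, ARF6, ARF7, ARF8, IBH1, PIF3, PRE5, BES1, PAR1 and CASP5 were named after their values were seen. The ratios between members and the intervals on low counts were likewise chosen then. Alternatives covered scaling, filters, DESeq2 1.42.0, limma 3.58.1 voom, organelle genes, a replicate block, a root marker covariate and leaving out each library.

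Sequences and gene models are RefSeq's for TAIR10.1, whose nuclear chromosomes carry the TAIR10 sequence, and 27444 of the 27655 identifiers matched them. Gene lengths implied by the deposited RPKM kept a constant ratio to RefSeq exon lengths, within 1%, for 99.3% of 17804 genes with 50 counts or more in a library. Promoter and protein tables were not used here, so the windows were cut as the 300 bases before each gene's start and no protein is compared.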

Additional observations from a re-analysis of the deposited data

How the results depend on the processing

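The count of 7 alpha-expansins called lower and 0 higher held under DESeq2, limma voom, 2 of the 3 other scalings, both other filters, removal of organelle genes, the replicate block, the root marker covariate and the loss of each single library. With upper quartile scaling it was 8 lower, because EXPA5 passed the test at -0.36; that scaling gave 4465 genes higher and 6813 lower over all genes, against 5624 higher and 5094 lower with TMM. EXPA8 ran from -5.73 to -4.98 and EXPA4 from -1.18 to -0.91 with 1 library left out. With the filter of 5 CPM in 3 libraries, 1 of the other expansins was called lower in place of 3, since fewer genes were tested. Under that filter EXPA8 and EXPA10 were kept only through their air libraries, so their calls there add no separate support. With 1 library left out, 1 to 2 root markers were called lower and 0 to 3 higher, the highest counts of each without air replicate 2. With the replicate block, 7 alpha-expansins were called lower, and over all genes 5470 were higher and 4877 lower. Deviations of same-numbered libraries had correlations of -0.04, 0.04 and 0.04, so no pairing was seen. This does not show whether they shared a plate or day. Depth limits EXPA2, EXPA12 and EXPA17, and a single time point in whole seedlings limits all results.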

Other observations

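A pair of low alpha-expansins below the count filter had more counts under water. EXPA12 (AT3G15370) had 8, 6 and 18 counts in the submerged libraries and 2, 0 and 0 in air, a ratio of 15.2 with a 95% exact binomial counting interval of 2.37 to 639. EXPA17 (AT4G01630) had 14, 6 and 6 counts in the submerged libraries and 2, 0 and 0 in air, a ratio of 12.4 (1.86 to 526). Without the filter, edgeR's quasi-likelihood test gave them adjusted p-values of 0.0124 and 0.0234. Both air values rest on air replicate 1. These genes were chosen after their values were seen. AHA9, a proton pump gene known from anthers, had 0 counts in the submerged libraries and 6, 4 and 2 in air, and PRE5 had 4 counts under water in all and 22 in air.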
